A study of Homo sapiens with 4 samples.

Results

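The genes that encode the proteins of the cytosolic ribosome were examined after knockout (KO) of SLC35F2, a gene of the solute carrier superfamily, in the established human embryonic stem cell line WA09, known as H9. Polyadenylated RNA was sequenced in 2 KO libraries and 2 control libraries of the same line. A gene was a member if its symbol in GENCODE 29 was that of a protein-coding RPL or RPS gene, with RPLP0, RPLP1, RPLP2 and RPSA, and if it did not lie on chromosome Y. This gave 84 of the 60483 gene identifiers in each library, 52 of the large subunit and 32 of the small subunit. Of these, 7 were taken as variant paralogs, copies that differ from a more abundant parent gene in coding sequence: RPL3L, RPL7L1, RPL10L, RPL22L1, RPL26L1, RPL39L and RPS27L. Whether each of their proteins takes the place of the parent in the ribosome was not tested. Ribosomal proteins whose genes do not carry such names, among them FAU, RPL36AL and RACK1, were described separately. No treatment or time is given for either group, and separate cultures or clones within a group are not stated. P-values therefore measure the spread between these libraries, which may be technical.

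A ribosome is built from ribosomal RNA and one or a few copies of each ribosomal protein, and the genes are transcribed at high rates in dividing cells. Their mRNAs typically begin with a C followed by a run of pyrimidines, the terminal oligopyrimidine (TOP) tract, through which LARP1 and the kinase complex mTORC1 control their translation. The genes have left large numbers of processed pseudogenes in the human genome, which can compete with them for short reads. A few proteins have paralogs with restricted expression, among them RPL3L in striated muscle and RPL10L and RPL39L in the testis.

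The start sites of the members show what they have in common beyond their names. Windows of 28 bases around the annotated starts, 12 bases before the start and 16 from it on, were taken from RefSeq (GRCh38.p14), which held 67 of the 84 members. A TOP-like start was counted where the first base was C and at least 4 further C or T bases followed. Of the 62 members with a window that are not variant paralogs, 46 (74.2%) had such a start at 1 or more of their annotated starts, against 5.14% of all 27305 genes in the table. Among the 5 variant paralogs with a window it was 1, RPL22L1. The windows of 3 members with a TOP-like start, of 2 parent genes and of 3 paralogs, all named again with their values, are given with the run of C and T from the start in capitals where the start matched. The start is the base at position 13.
RPLP0 (chr12:120201096-120201123, minus strand): cgggcgcgaggcCCTTCTCTCgccaggc
RPS14 (chr5:150449724-150449751, minus strand): ccccctcccactCTCTCTTTCCggtgtg
RPS9 (chr19:54200846-54200873, plus strand): gcgcttccgcgcCTCTTTCTCagtgacc
RPL22 (chr1:6199580-6199607, minus strand): ttcgctcacctcCCTTTCTaactccgct
RPL22L1 (chr3:170870180-170870207, minus strand): ggccgtagcttcCTCTCTgctctcgcgg
RPS27 (chr1:153990750-153990777, plus strand): tccgctttcgctCCTTTCCggcggtgac
RPS27L (chr15:63157462-63157489, minus strand): ttgatgccgagcgcagatcgcttgcagc
RPL7L1 (chr6:42879604-42879631, plus strand): aagtgcggcgccgtagctaggagcggac

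RPS27L and RPL7L1 thus lacked these letters in this window while RPL22L1 and both parents had them. The match describes the annotated start and not the ends of the RNA in these cells.

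The knockout and the cells were checked first. SLC35F2 had 12.1 and 9.65 CPM (the reads of a gene scaled to a common library size with TMM factors) in KO 1 and KO 2, against 41.1 and 27.1 CPM in control 1 and control 2, so its RNA was lower in both KO libraries but still present. Its log2 fold change was -1.65 (95% interval -2.46 to -0.85), and edgeR did not call it after adjustment (adjusted p = 0.58). The stem cell markers POU5F1, SOX2, NANOG, LIN28A and DNMT3B were present in all 4 libraries. Their summed level, most of it from LIN28A and DNMT3B, was 4462 and 3158 CPM in KO and 4142 and 3747 CPM in control. Single markers differed in direction. NANOG had 46.2 and 19.1 CPM in KO and 61.2 and 64.7 CPM in control (log2 fold change -0.95, unadjusted p = 0.0438 and adjusted p = 0.997 in edgeR's test). LIN28A had 2138 and 1824 CPM in KO and 1691 and 1759.5 CPM in control, above both controls in each KO library. DNMT3B had 1550.0 and 662 CPM in KO and 1743 and 1302 CPM in control, and KO 2 was the lowest. The part of these differences in the results was not tested. The summed level of 5 fibroblast markers, nearly all of it from the collagen gene COL1A1 and almost none from DCN and LUM, was 48.8 and 556 CPM in KO and 132 and 302 CPM in control. KO 2 stood highest for COL1A1 and also for most ribosomal protein genes. The fibroblast markers did not all go this way. Of the 3 tested, 2 had a positive log2 fold change and 1 a negative one. POSTN had 1.64 and 0.468 CPM in KO and 2.39 and 1.18 CPM in control, with KO 2 lowest. The part of other cells in the results was not tested. In bulk RNA, fewer cells of a type and less RNA per cell cannot be told apart.

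Ribosomal protein genes took a slightly larger share of the reads in the KO libraries, mostly in KO 2, and no single member passed the test. The share of assigned reads in the 84 genes was 8.83% in KO 1 and 9.62% in KO 2, against 8.48% in control 1 and 8.57% in control 2. The groups did not overlap, and KO 2 stood apart from the other 3 libraries. The group means were 9.23% ± 0.560 in KO and 8.53% ± 0.0588 in control (SD, n = 2 each), a difference of 0.700 percentage points. The difference was 0.304 points without KO 2 and 1.10 points without KO 1. Counting error was far smaller, with 95% Wilson intervals of at most 0.0105 points to either side at 27824693 to 37978705 assigned reads per library. These intervals cover counting error only. Mitochondrially encoded genes, which share the same denominator, took 5.15% and 8.97% of the reads in KO and 7.38% and 6.49% in control. With them left out, the ribosomal share was 9.31% and 10.6% in KO and 9.16% in both controls, so KO 2 carried most of the mean difference of 0.779 points. No p-value is given for this sum, and an exact permutation test of 2 libraries against 2 could not go below 0.333.

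The share of each subunit was higher in both KO libraries, but not in the same proportion. Large subunit genes took 5.23% and 5.91% of assigned reads in KO and 5.07% and 5.17% in control. Small subunit genes took 3.60% and 3.71% in KO and 3.41% and 3.40% in control. The ratio of large to small subunit reads was 1.46 and 1.60 in KO and 1.49 and 1.52 in control. The 2 KO libraries lay on either side of both controls in this ratio, so the groups overlapped. KO 1 had the lowest ratio and KO 2 the highest. Without KO 2 the difference in the ratio was -0.0482, and without KO 1 it was 0.0927.

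**Figure D1:**
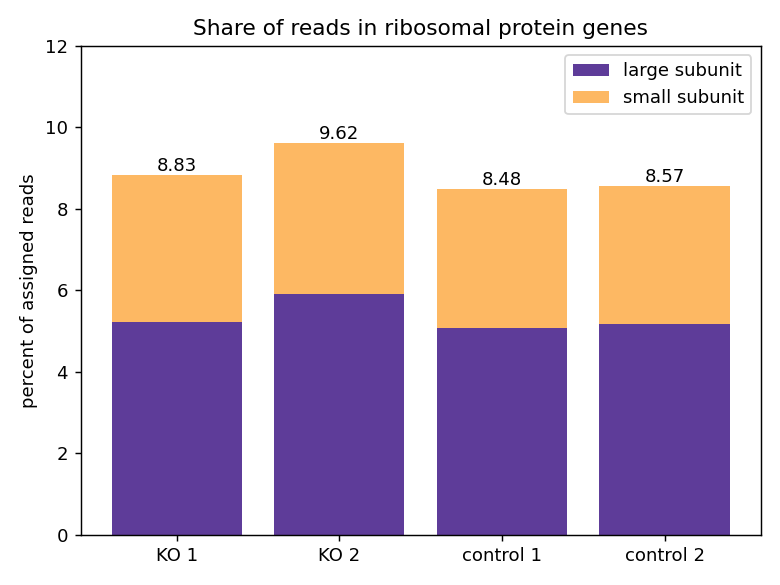
Stacked bars give the percent of assigned reads in large and small subunit genes in each of the 4 libraries, with the sum printed above each bar. KO 2, at 9.62%, stands above the other libraries, which lie between 8.48% and 8.83%.

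No member passed the test over all genes. Of the 84 genes, 83 had enough reads to be tested, all but RPL10L, and edgeR's quasi-likelihood test called 0 of them at a Benjamini-Hochberg adjusted p of 0.05. It called 5 of 19027 genes in all (0.0263%). At an unadjusted p under 0.05 the count of members was also 0, and DESeq2 and limma-voom called 0 members as well. Of all genes DESeq2 called 0.33% and limma-voom 0. The other settings with both groups complete also called 0 members, and of all genes they called 0.00526% with quantile normalisation and with the legacy fit, 0.0215% with no filter and 0.399% with the replicate block. Without control 1 or control 2 the members called were again 0, against 0.0197% and 0.015% of all genes. Without KO 1 or KO 2 it was 1 member each, against 5.31% and 0.927% of all genes. The smallest unadjusted p of a member was 0.0824. The 95% interval of every tested member held 0, and its median half-width was 0.57 on the log2 scale. Changes below about that size could not be shown with 2 libraries per group. The intervals are not adjusted for the 19027 genes tested, so a call needed a larger change still.

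The log2 fold changes were small and mostly of 1 sign. They were positive for 75 members and negative for 8, and 79 lay within 0.5 of 0. The median was 0.25, against 0.03 over all genes tested. Among abundant genes, those from a mean of 100 CPM up, it was 0.14, and 78 members reached that level. Large subunit genes had a median of 0.23 and small subunit genes one of 0.26. Of the tested members, 42 (50.6%) stood above both controls in each KO library and 1, RPL22L1, stood below them. Over all genes tested, 15.8% were higher and 16.3% lower in this sense, and among the 1999 genes with at least 100 CPM 26.0% were higher and 6.60% lower. With upper-quartile factors 26 members were higher and 5 lower. The shares of all genes under those factors are not given here, so these counts show only that the number depends on the scaling. The members share libraries and scaling factors, so their counts are not independent observations.

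How far the members stood from control depended on the library. Relative to the mean of the controls, the median member was 0.11 higher on the log2 scale in KO 1 and 0.35 higher in KO 2, while control 1 stood at 0.07 and control 2 at -0.07. KO 1 therefore lay close to control 1. The level was above that of KO 1 in KO 2 for 72 of the 84 members. Without KO 2 the median log2 fold change was 0.11, with 65 members positive, and without KO 1 it was 0.36, with 76 positive. With library size as the only scaling the median over all genes was -0.10 and that of the members 0.12. Under it 29 members were higher in both KO libraries, a count given without the share of all genes under that scaling. Taken relative to the median of all genes, the members stood at 0.22 both with TMM factors and with library size only. Quantile normalisation of log2 CPM brought this difference to 0.01.

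**Figure D2:**
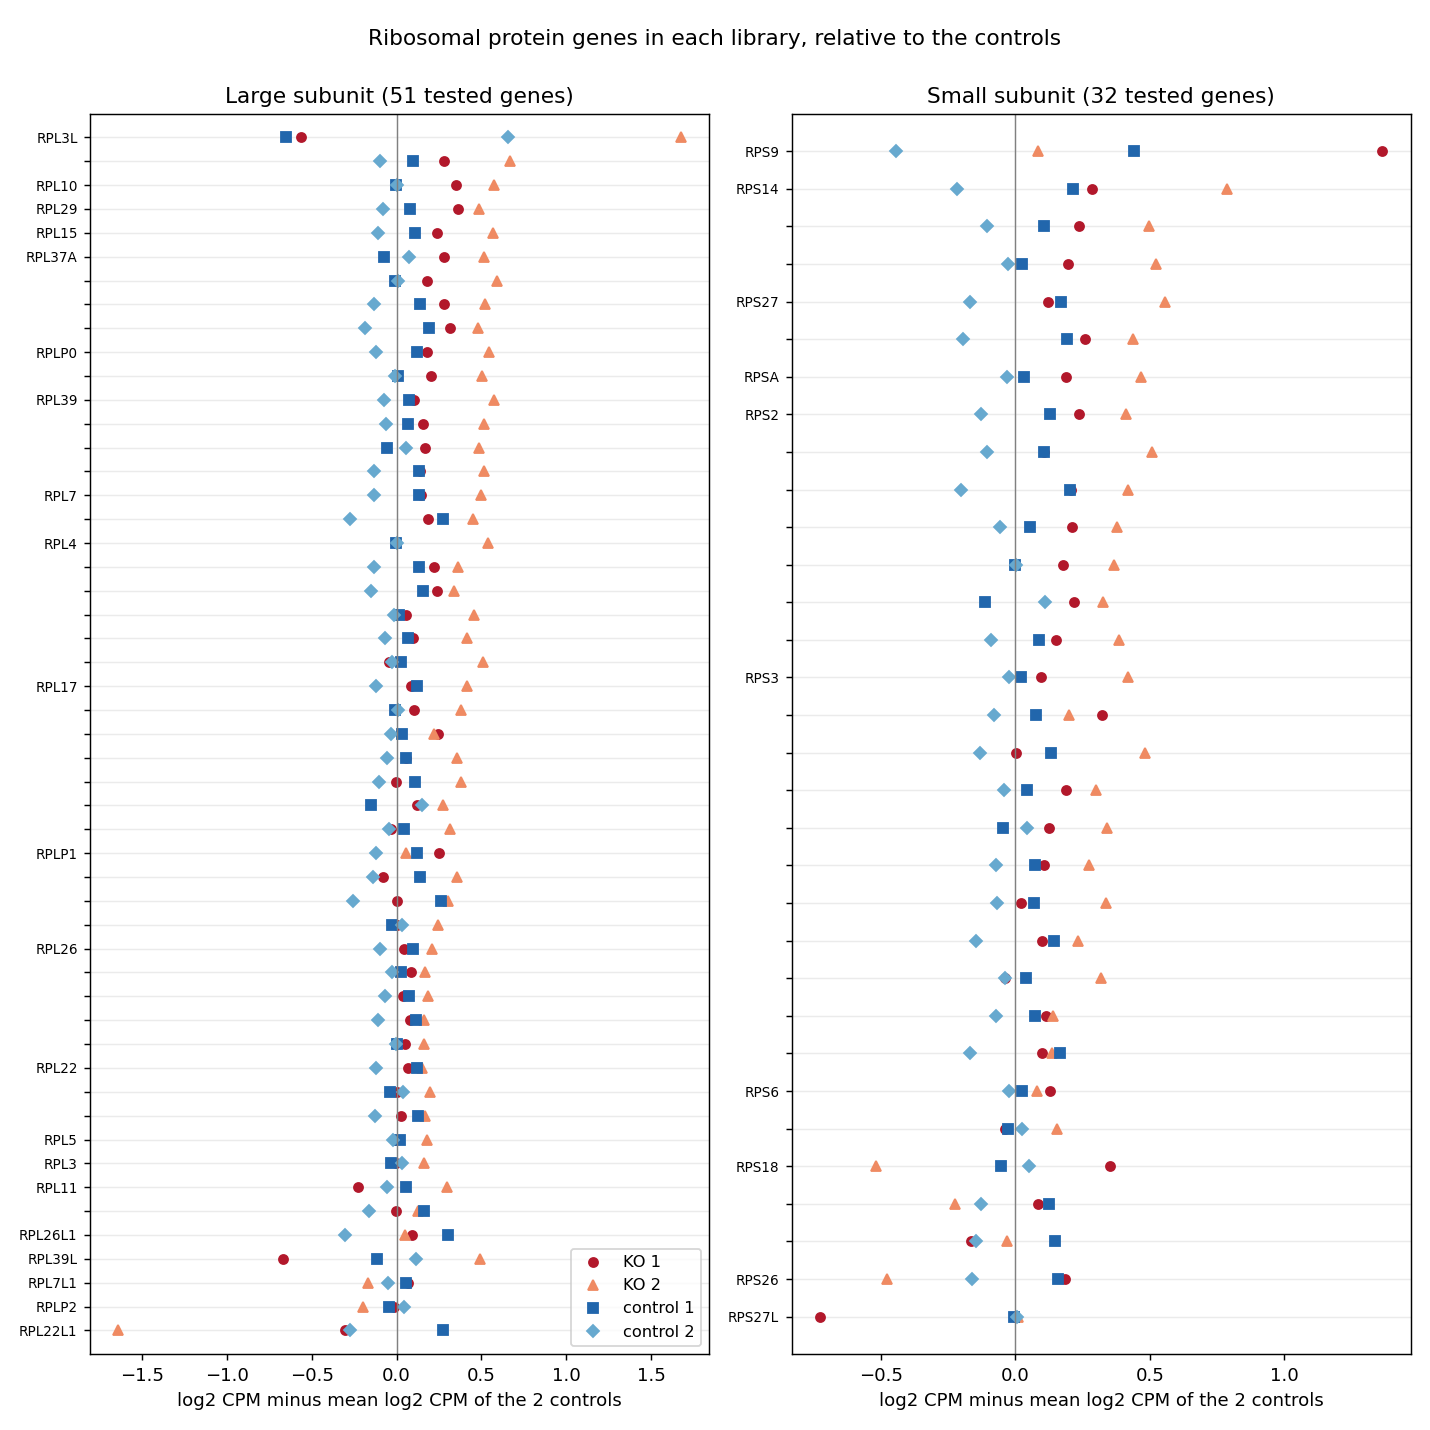
Each row is a tested ribosomal protein gene, with the log2 CPM of each library minus the mean of the 2 controls on the x axis, and genes ordered by fold change; most genes described in the text are labelled. The KO 2 triangles lie to the right of the controls for most genes, while the KO 1 points lie closer to the controls, with RPS9, RPS18, RPL39L and RPS27L among the exceptions.

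**Figure D3:**
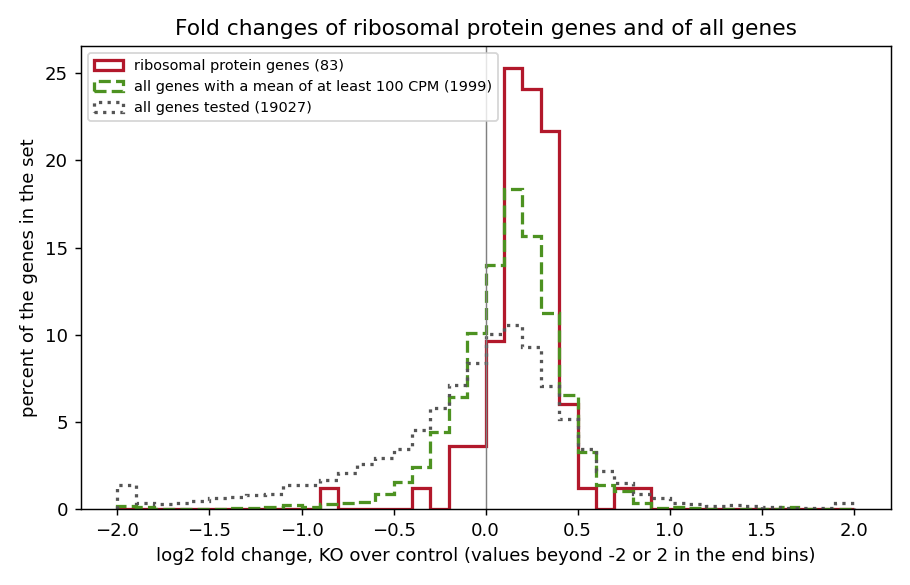
Histograms of the log2 fold change (KO over control) in percent of each set, for the 83 tested ribosomal protein genes, the 1999 genes with at least 100 CPM and all 19027 genes tested. The ribosomal protein genes form a narrow peak with a median of 0.25.

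Among the members with the largest positive values without overlap of the groups were RPS14, RPL10, RPL29, RPL15 and RPL37A. RPS14, a protein of the small subunit platform, had 1184 and 1677 CPM in KO and 1127 and 837 CPM in control (log2 fold change 0.54 ± 0.29 SE). KO 1 was only just above control 1. RPL10, which joins the large subunit late in its assembly, had 1758 and 2047 CPM in KO and 1373 and 1383 CPM in control (log2 fold change 0.47 ± 0.24 SE). Its controls differed by less than 1 part in 100, and both KO libraries stood clear of them. RPL29 had 1058 and 1156 CPM in KO and 870.3 and 781 CPM in control. For RPL15 and RPL37A the log2 fold changes were 0.41 and 0.40. These 5 stayed positive over the 15 alternative settings, the lowest value of each lying between 0.18 and 0.27, and none was called in any. They were picked for their rises in these same libraries, so their constant sign is no separate evidence of a rise.

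Members were also taken by their place in the ribosome. Of the stalk proteins, which recruit the GTPases of translation, RPLP0 had 2933 and 3783 CPM in KO and 2811 and 2384 CPM in control. RPLP1 had a log2 fold change of 0.15 and RPLP2 one of -0.10, and their groups overlapped. RPL5 and RPL11 bind 5S ribosomal RNA and, when free, the p53 regulator MDM2. The log2 fold change was 0.09 for RPL5, with a 95% interval of -0.46 to 0.64, and 0.06 for RPL11. RPL11 had 1017 and 1464 CPM in KO and 1239 and 1146 CPM in control, with the controls between the KO libraries. RPL4, RPL17 and RPL39, which line the exit tunnel of the nascent chain, had log2 fold changes of 0.29, 0.26 and 0.36, with overlap for RPL4 and RPL17. For RPL4 the value came from KO 2 alone, with 2297 and 3346 CPM in KO against 2296 and 2310 CPM in control. RPS2 and RPS3, at the entry of the mRNA channel, were both higher in both KO libraries, with log2 fold changes of 0.32 and 0.27. RPSA had 1524 and 1850 CPM in KO and 1366 and 1307 CPM in control. RPS6, the substrate of the S6 kinases, had 2199 and 2124 CPM in KO and 2043 and 1977 CPM in control, a log2 fold change of 0.10 (95% interval -0.43 to 0.64).

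Per kilobase of the shortest principal transcript, RPS27, RPS3 and RPLP0 were among the members with the highest mean levels. RPS27 had 3048 and 4116 CPM per kilobase in KO and 3148 and 2488 in control, and RPLP0 had 2408 and 3106 in KO and 2308 and 1958 in control. RPS27 stood above RPLP0 in each of the 4 libraries. With the length of all annotated exons RPS27 ranked 4 and RPS3 ranked 34 of the 84 members, so the ranks depend on the length used.

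Several members differed more between libraries of the same group than between the groups. RPS9, an early-binding protein of the small subunit (chromosome 19, 54200742 to 54249003, plus strand, GRCh38), had 719 and 296 CPM in KO and 379 and 206 CPM in control. Both libraries numbered 1 were the higher of their group, and KO 2 lay between the controls. Its log2 fold change was 0.79 ± 0.45 (SE; 95% interval -0.25 to 1.83), and it was 0.03 without KO 1 and 1.30 without KO 2. In the second case edgeR called it (adjusted p = 0.0273), with the lone KO library assumed to vary as the controls do. RPS18, a protein of the small subunit head, had 1906 and 1044 CPM in KO and 1441 and 1547 CPM in control. The KO libraries lay on either side of both controls, and the log2 fold change was -0.02 ± 0.31 (SE). RPS26, which lies at the exit of the mRNA channel, had 177 and 112 CPM in KO and 174 and 139 CPM in control, and KO 2 was the lowest. RPS18 and RPS26 were chosen after their values were seen. Pseudogenes named after RPS9 held 0 reads in all libraries and those named after RPS18 held 40 and 74 reads in KO and 69 and 44 in control.

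**Figure D4:**
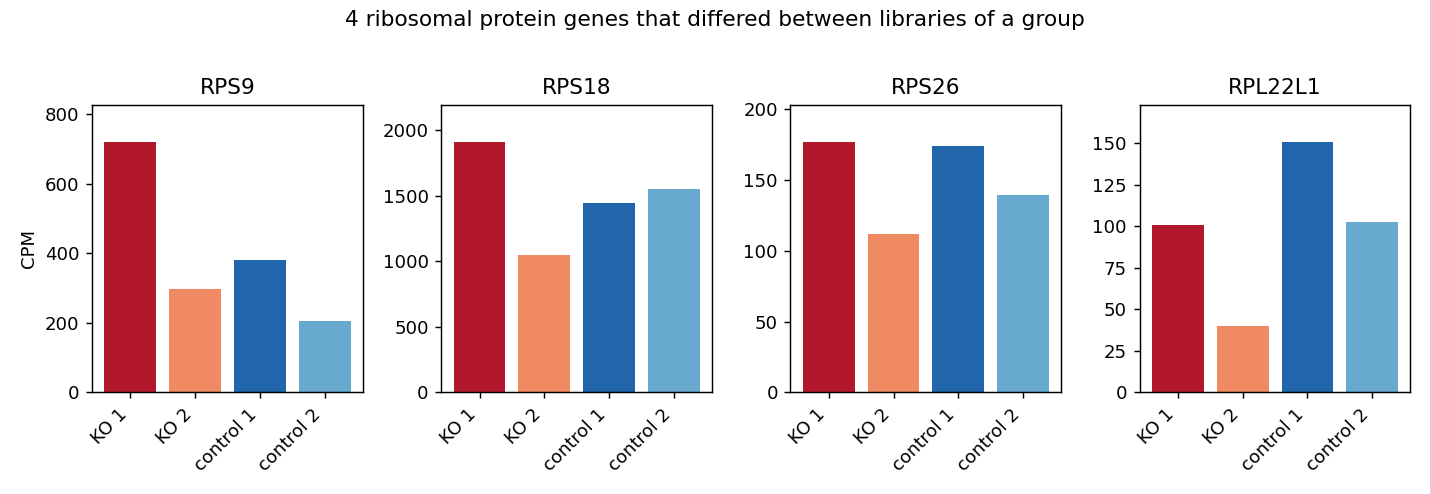
Bars give the CPM of RPS9, RPS18, RPS26 and RPL22L1 in each of the 4 libraries. KO 2 is below KO 1 in all 4 panels, and for RPL22L1 it is the lowest library, at 39.9 CPM.

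Over the 82 members with a mean of at least 10 CPM, the SD of the log2 difference between 2 libraries was 0.35 between KO 1 and KO 2 and 0.20 between the controls. Between a KO and a control library it ranged from 0.21 to 0.35. The profile of the members thus differed as much between the 2 KO libraries as between groups. RPL22L1, RPS9 and RPS18 lay furthest from the common shift between KO 1 and KO 2. For all genes with at least 100 CPM the same SD was 0.61 between the KO libraries and 0.36 between the controls.

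The variant paralogs as a sum were a smaller part of the ribosomal protein reads in both KO libraries. They made up 0.440% and 0.366% of the ribosomal protein reads in KO, against 0.576% and 0.550% in control. The groups did not overlap in this share. Its largest part in each library came from RPL7L1, with 0.204% and 0.149% in KO and 0.212% and 0.215% in control. RPL7L1 was identical to RPL7 at only 55.7% of the aligned coding bases. Of the 6 tested, 0 were higher in both KO libraries and 1 (16.7%) was lower, RPL22L1, against 15.8% and 16.3% of all genes tested. A share of 1 in 6 is thus near that of all genes. The median log2 fold change of the 6 was -0.01. For the 77 other members it was 0.26. None of the 6 was called.

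RPL22L1 (chromosome 3, 170864875 to 170870483, minus strand, GRCh38) had the lowest log2 fold change of all tested members. It encodes a paralog of RPL22, a large subunit protein that binds RNA and, in mouse, is known to hold down the RNA of Rpl22l1. RPL22L1 had 101 and 39.9 CPM in KO, from 2771 and 1365 reads, and 150.5 and 103 CPM in control, from 5678 and 3652 reads. KO 1 was barely below control 2, and KO 2 was far below the other 3 libraries. The log2 fold change was -0.85 ± 0.43 (SE; 95% interval -1.84 to 0.14). In edgeR's quasi-likelihood test its unadjusted p was 0.0824 and its Benjamini-Hochberg adjusted p 0.997. Without KO 1 it was -1.65 and edgeR called it (adjusted p = 0.00123), with the lone KO library assumed to vary as the controls do, and without KO 2 it was -0.33. RPL22 itself had 537 and 567 CPM in KO and 557 and 471 CPM in control. Per 100 reads of RPL22 there were 18.8 and 7.04 reads of RPL22L1 in KO and 27.0 and 21.8 in control. The log2 ratio differed by -1.08 between KO and control, by -0.37 without KO 2 and by -1.79 without KO 1, with a pooled SD of 0.72 within groups.

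The coding sequences of the pair in GENCODE 29 transcripts show how well short reads can be told apart. RPL22L1 has 366 coding bases and RPL22 (chromosome 1, 6185020 to 6209389, minus strand) has 384. Over all aligned bases 68.6% were identical, and the longest identical run was 17 bases.

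RPS27L, a paralog of RPS27 and a known target gene of p53, was lower relative to its parent in both KO libraries. Per 100 reads of RPS27 there were 3.96 and 4.88 reads of RPS27L in KO and 6.31 and 8.05 in control, so the groups did not overlap. The log2 ratio differed by -0.70 between KO and control, with a pooled SD of 0.23 within groups. RPS27 had 1094 and 1478 CPM in KO and 1130 and 893 CPM in control. RPS27L alone had 43.3 and 72.1 CPM in KO and 71.3 and 71.9 CPM in control. KO 1 was thus lower and KO 2 level with the controls, and the log2 fold change was -0.31 (95% interval -1.02 to 0.40). RPS27L lies on chromosome 15 (63125872 to 63158021, minus strand) and RPS27 on chromosome 1 (153990755 to 153992155, plus strand). Over 252 coding bases 77.8% were identical, with a longest identical run of 20 bases. The sequences are given from GENCODE 29 transcripts, without the stop codon, with the bases that differ from the other sequence or have no partner in it in capitals.
RPS27L: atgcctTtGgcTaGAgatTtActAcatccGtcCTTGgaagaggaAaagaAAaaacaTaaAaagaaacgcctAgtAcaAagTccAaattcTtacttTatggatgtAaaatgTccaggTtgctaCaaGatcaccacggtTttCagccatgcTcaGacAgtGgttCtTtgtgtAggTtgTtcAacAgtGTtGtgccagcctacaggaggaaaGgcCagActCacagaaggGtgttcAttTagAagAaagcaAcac
RPS27: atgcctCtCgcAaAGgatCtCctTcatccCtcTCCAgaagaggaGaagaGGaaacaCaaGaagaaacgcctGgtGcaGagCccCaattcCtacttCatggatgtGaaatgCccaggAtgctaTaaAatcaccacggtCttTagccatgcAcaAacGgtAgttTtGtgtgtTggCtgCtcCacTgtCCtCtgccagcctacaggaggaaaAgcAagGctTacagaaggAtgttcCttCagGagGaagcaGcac

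The remaining paralogs gave ratios that overlapped between the groups or rested on few reads. RPL39L had 37.6 and 84.2 CPM in KO and 55.2 and 64.8 CPM in control, with the KO libraries on either side of the controls. Per 100 reads of RPL39 there were 11.4 and 18.4 reads of it in KO and 17.1 and 22.2 in control. With RPL39 it shares 94.8% of 153 coding bases and an identical run of 44 bases, so the split of reads between them is less certain than for the other tested paralogs. RPL7L1 had 182 and 155 CPM in KO and 181 and 168 CPM in control, and RPL26L1 had 28.8 and 28.0 CPM in KO and 33.4 and 21.9 CPM in control. RPL3L, the muscle paralog, had 7 and 41 reads in KO and 9 and 21 in control. RPL10L, the testis paralog, had 2 and 3 reads in KO and 2 and 0 in control and was not tested. Of the muscle markers MYH7, CKM and MYOD1 and of the testis markers DDX4, TNP1, PRM1 and SYCP3, none had enough reads to be tested. The summed level of the 5 muscle markers, mostly from TTN, was 28.8 and 14.0 CPM in KO and 35.1 and 38.4 CPM in control. That of the 5 testis markers was 0.582 and 0.117 CPM in KO and 0.742 and 0.873 CPM in control.

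**Figure D5:**
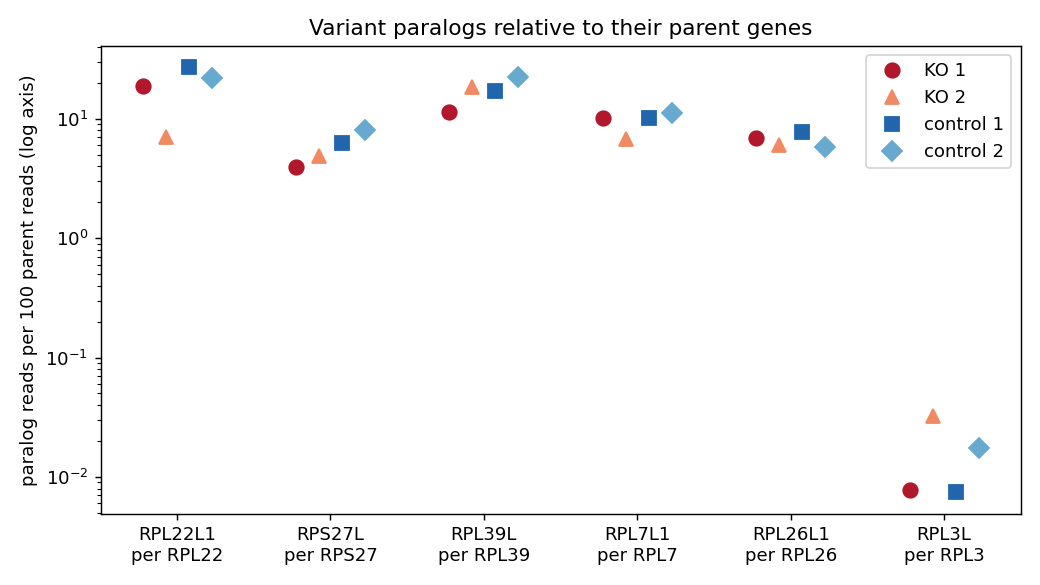
Reads of the 6 tested variant paralogs per 100 reads of their parent genes in the 4 libraries, on a log axis; RPL10L, with 0 to 3 reads a library, is not plotted. For RPL22L1 and RPS27L both KO libraries lie below both controls, and for the other pairs shown the groups overlap.

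Reads that match several genes bear on these counts. The authors' counting gave 6.35% and 6.87% of the counted alignments in KO and 6.57% and 6.88% in control to no gene because they aligned to more than 1 place. Annotated pseudogenes named after a member held 0.658 and 0.682 reads per 100 reads of the members in KO and 0.683 and 0.693 in control. Adding them left the difference in the share at 0.703 points. The exons of 35 members overlap another annotated gene on the same strand, mostly small nucleolar RNA genes. For RPL17, RPL36A and RPS10 the overlap is with an annotated read-through gene, and how reads in shared exons were assigned is not stated. RPL36A had, with RPS26, the lowest levels of the members that are not variant paralogs. Levels of such genes were set against other members here and, for RPS3, which overlaps SNORD15A, per kilobase. No allowance was made for the overlap.

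Genes that work with the ribosomal proteins were set beside them, and none was called. Of the 4 ribosomal proteins outside the name rule, FAU, which yields a small subunit protein fused to a ubiquitin-like one, was higher in both KO libraries (375 and 460.4 CPM in KO, 343 and 277 CPM in control). RACK1, a scaffold on the small subunit, had a log2 fold change of 0.21, with overlap. Of 18 other translation genes with TOP mRNAs, 6 (33.3%) were higher and 1 (5.56%) lower in both KO libraries, with a median of 0.12. Over all genes tested these shares were 15.8% and 16.3%, and among genes with at least 100 CPM they were 26.0% and 6.60%. The lower gene, EEF1G, held only 10 and 15 reads in KO and 18 and 17 in control. Its place below the controls rests on few reads. EEF1D, the next lowest of the 18 by mean CPM, held 4998 and 5416 reads in KO and 5867 and 4513 in control. The cause of the low count of EEF1G in all libraries was not tested. Among the 18 genes the elongation factor gene EEF1A1 had 14053 and 17617 CPM in KO and 14036 and 13379 CPM in control. EEF2 had 4812 and 5985 CPM in KO and 4442 and 4018 CPM in control. KO 1 equalled control 1 for EEF1A1 within 1 part in 100.

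Of 77 genes of mitochondrial ribosomal proteins, 9 (11.7%) were higher and 3 (3.90%) lower in both KO libraries, against 15.8% and 16.3% of all genes, and the median was 0.16. MRPL3 had 219 and 202 CPM in KO and 222 and 150.1 CPM in control. MRPL23 had 22.8 CPM in KO 2 against 4.87 in KO 1 and 4.77 and 5.29 in control. Of 46 genes of ribosome biogenesis, 2 (4.35%) were higher and 9 (19.6%) lower in both KO libraries, with a median of -0.05. The share that was lower is near the 16.3% of all genes, and the share that was higher is below their 15.8%. Among genes with at least 100 CPM, a level that NCL and FBL reach, 26.0% were higher and 6.60% lower. NCL, which encodes nucleolin, had 1959 and 1385 CPM in KO and 2045 and 1448 CPM in control, with the libraries numbered 1 higher in both groups. FBL, the methyltransferase fibrillarin, had 499 and 589.5 CPM in KO and 502 and 339 CPM in control, with overlap. LTV1 and UTP15, factors of small subunit assembly, had 55.3 and 38.1 CPM in KO against 73.5 and 65.2 in control for LTV1, and 32.8 and 23.1 CPM in KO against 42.2 and 39.1 in control for UTP15. Chaperones of single ribosomal proteins, 6 in number, had a median of 0.15, and 1 of them (16.7%) was higher in both KO libraries, near the 15.8% of all genes.

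Of 15 regulators of TOP mRNAs and mTORC1, 5 (33.3%) were higher and 2 (13.3%) lower in both KO libraries, against 15.8% and 16.3% of all genes tested. Their log2 fold changes were positive for 12 and negative for 3, with a median of 0.15. The transcription factor gene MYC had 64.0 and 37.3 CPM in KO and 66.4 and 147 CPM in control (log2 fold change -1.08, unadjusted p = 0.0338 and adjusted p = 0.997 in edgeR's test). Control 2 alone was high, and KO 1 was close to control 1. LARP1 had 743 and 437 CPM in KO and 565 and 511 CPM in control, with overlap. Of 10 host genes of small nucleolar RNAs, whose spliced RNAs also carry TOP tracts, 0 were higher and 2 (20%) lower in both KO libraries, against 15.8% and 16.3% of all genes, and the median was 0.01. SNHG1 had 242 and 125 CPM in KO and 245 and 338 CPM in control, and GAS5 had 263 and 337 CPM in KO and 298 and 259 CPM in control. These lists were not compared with the ribosomal protein genes by a test.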

How the data were processed

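Polyadenylated RNA of 2 KO and 2 control libraries was analysed, grouped by title. A strand-specific mRNA kit was used, per the labels' protocols. The submitters' processing notes name STAR 2.6.0a, HTSeq 0.11.0, cutadapt 1.8.1 and FastQC 0.11.7, and GRCh38 (hg38). Neither the strand setting nor the annotation release is stated there. The deposited values are whole-number counts of reads per gene, which the authors left without normalisation. Of 60483 identifiers, 56753 (93.83%) matched GENCODE 29 without their version. Reads given to no single gene, 14.4% to 20.3% of the counted alignments, were left out.

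Genes were filtered with edgeR's filterByExpr (minimum count 10), scaled with TMM factors and tested two-sided in R 4.3.3 by the robust quasi-likelihood F test of edgeR 4.0.16, Benjamini-Hochberg adjusted over 19027 genes. Standard errors are the log2 fold change over the square root of F. Alternatives used DESeq2 1.42.0, limma 3.58.1, other scaling and filters, a replicate block and left-out libraries. The test was tried on simulated data. Sums over members were not tested. Levels per kilobase used the shortest APPRIS principal transcript. The members and lists were chosen with earlier results of these data known. Named were the paralogs and their parents, members of 4 structural groups with RPSA and RPS6, the 5 highest per kilobase, the 5 smallest p, the 6 largest rises and falls without overlap from 20 CPM, and from each other list the 2 most abundant genes and the 2 with the smallest p. Not every gene under the last clause is printed. Some genes that this rule picks, and the coding sequences of 1 pair, are not reported here.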

Additional observations from a re-analysis of the deposited data

How the results depend on the processing

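The count of members called was 0 in the main test and in 13 of 15 alternative settings, and 1 without KO replicate 1 (RPL22L1) and without KO replicate 2 (RPS9). The count over all genes was 5, and it was 0 with upper-quartile factors, library size only, limma-voom and a mean CPM of at least 1. It was 1 with quantile normalisation and with the legacy fit, 8 with no filter, 61 with DESeq2 and 76 with the replicate block, which called 0 members. Leaving out 1 library gave 3 to 1096 calls. With 1 library left out, the median log2 fold change ranged from 0.106 to 0.359 for the members, 0.0737 to 0.368 for the large subunit and 0.141 to 0.342 for the small subunit, and relative to all genes from 0.124 to 0.384. Quantile normalisation gave 0.045 for the members, 0.0237 for the large subunit, 0.054 for the small subunit and 0.0117 relative to all genes, and library size only gave 0.131 for the small subunit. The number of members higher in both KO libraries was 26 with upper-quartile factors. The number lower was 5 with these factors and 3 with library size only, with no share of all genes beside these counts. The cause of these differences was not tested. Replicate numbers mark no shared culture in the labels. The deviations of same-numbered libraries from their group means correlated across genes with r = 0.38, and under the replicate block the adjusted p of RPL22L1 was 0.140 and that of RPS9 0.412.

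Signs of small log2 fold changes turned in some settings. With library size only these were RPL11 (-0.0765), RPL22 (-0.0194), RPL26L1 (-0.0735), RPL3 (-0.049), RPL39L (-0.127), RPL5 (-0.0416) and RPS6 (-0.0204). With quantile normalisation they were RPL11 (-0.152), RPL22 (-0.0281), RPL26 (-0.0146), RPL3 (-0.0742), RPL39L (-0.178), RPL5 (-0.141), RPLP1 (-0.106) and RPS6 (-0.126). With upper-quartile factors they were RPL11 (-0.0266), RPL26L1 (-0.0367), RPL3 (-0.00308) and RPL39L (-0.0652). The value also turned in limma-voom for RPL39L (-0.076), with a mean CPM of at least 1 for RPL39L (-0.0247) and with the replicate block for RPL39L (-0.086). With 1 library left out, the range crossed 0 for RPL11 (-0.229 to 0.308), RPL22 (-0.0135 to 0.238), RPL26L1 (-0.233 to 0.385), RPL39L (-0.674 to 0.502), RPL3L (-0.68 to 1.65), RPL4 (-0.00151 to 0.552), RPL5 (-0.00887 to 0.192), RPL7L1 (-0.158 to 0.0671), RPS18 (-0.504 to 0.354), RPS26 (-0.473 to 0.176) and RPS27L (-0.723 to 0.0228).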
